A study of Sus scrofa with 24 samples.

Results

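The miR-378 family in the differentiating pig adipocytes consisted of 2 entries, ssc-miR-378 and ssc-miR-378b-3p. They were found by name, as every entry called ssc-miR-378 with any letter or arm suffix, and made up 2 of 1587 listed miRNAs, of which 363 were known pig miRNAs. Small RNA was sequenced from primary fat cells of six-day-old Yorkshire piglets, cultured from preadipocytes of the back subcutaneous fat (BF, subcutaneous adipocytes) or of the longissimus dorsi muscle (IMF, intramuscular adipocytes). Cells were collected at the start of differentiation (day 0) and on days 2, 4 and 8, which gave the 8 groups BF-0d, BF-2d, BF-4d, BF-8d, IMF-0d, IMF-2d, IMF-4d and IMF-8d with 3 libraries each. All cultures were induced when close to confluent. They received isobutylmethylxanthine, dexamethasone and insulin until day 2, insulin alone until day 4, and growth medium after that. Medium and day therefore cannot be told apart, nor can the source and its digestion, since the muscle was digested for longer and with more collagenase than the fat. The cultures came from 3 piglets in all, which the labels do not link to libraries, so p-values measure only the spread between these libraries, and part of that spread may be technical.

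A microRNA is cut from a hairpin transcript, loaded into an Argonaute protein, and guides it to messenger RNAs that pair with its seed, the bases near its 5′ end. The best known miR-378 hairpin lies inside a gene for PGC-1β, a coactivator of mitochondrial and fatty acid metabolism, so that the miRNA and its host can share a transcript. The family is abundant in skeletal muscle and has been studied in fat for its part in lipid storage and in the expansion of brown fat. In bulk cultures such as these, fewer cells of a type and less RNA per cell cannot be told apart.

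The mature sequences are shown because both members carry one seed, marked in capitals (bases 2 to 8), and differ only at the 3′ end.
ssc-miR-378: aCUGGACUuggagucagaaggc
ssc-miR-378b-3p: aCUGGACUuggagucagaagu
The first 20 bases were the same in both. Counted from the 5′ end, the difference was G21T (T stands for U in the RNA), after which ssc-miR-378 had 1 more base and a length of 22 against 21. No other entry shared this seed or one of the loci, among the 958 entries whose mature sequence was at hand. A read that ends at base 20 or before matches both members, and how the authors assigned such reads is not given in the sources used here. ssc-miR-378b-3p is the 20 shared bases and a U. A ssc-miR-378 molecule that ended in this way would be counted as ssc-miR-378b-3p, which was not tested.

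A hairpin of each member is shown because they come from different chromosomes, with the mature part in capitals on the 3′ arm.
MIR378-1: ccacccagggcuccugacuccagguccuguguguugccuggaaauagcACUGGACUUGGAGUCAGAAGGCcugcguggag
MIR378B: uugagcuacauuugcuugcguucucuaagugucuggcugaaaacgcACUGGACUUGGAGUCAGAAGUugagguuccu
These sequences were read from the Sscrofa11.1 genome at the positions of the NCBI RefSeq annotation. MIR378-1 (chr2:150825865-150825944, plus strand) lay in intron 1 of PPARGC1B, the PGC-1β gene, on the same strand. MIR378B (chr1:254135495-254135571, minus strand) lay in intron 14 of RGS3, on the strand opposite to its host. The study's own list places this hairpin on the plus strand. The mature sequence listed there is the same as the one read here from the minus strand, and the listed hairpin was not compared. The mature ssc-miR-378 had 2 exact copies in the genome, so its reads cannot be assigned to PPARGC1B alone. ssc-miR-378b-3p also had 2 exact copies. The one outside MIR378B (chr1:114834411-114834431, plus strand) lay opposite to TCF12 in an intron and is not annotated as a miRNA. The shared 20 bases occurred 6 times.

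The libraries held from 4954845 to 16863560 reads on listed miRNAs (median 10614384.5), and the third BF-8d library was the shallowest. Values are in TPM, here meaning reads per 1000000 reads counted on miRNAs, with no division by length. ssc-miR-378 was read 2483 to 20507 times per library, ranked 51st of all entries by mean level, and took between 0.0220% and 0.148% of the reads. ssc-miR-378b-3p was read 53 to 364 times and ranked 201st. The least read value of this minor member was 4.71 TPM from 53 reads, with a 95% Poisson interval of 3.52 to 6.16 TPM that covers counting error only.

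Both members were lower in intramuscular than in subcutaneous adipocytes on every day. The 3 BF-0d libraries held ssc-miR-378 at 949, 1360 and 983 TPM, and the IMF-0d libraries at 330, 414 and 290.2 TPM. On day 2 the BF libraries gave 889, 861 and 832 TPM and the IMF libraries 374, 339.9 and 337 TPM. Every subcutaneous library lay above every intramuscular one on both days. On day 4 BF stood at 777, 897 and 719.8 TPM against 220.5, 338 and 297 TPM in IMF. On day 8 BF stood at 1480, 1153 and 1012 TPM against 340.1, 369 and 404 TPM in IMF. The groups were again fully apart, and the highest value of the series was the first BF-8d library.

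The mean of ssc-miR-378 was 1097 ± 228 TPM (SD, n = 3) in BF-0d and 345 ± 63.0 TPM in IMF-0d. The log2 fold change of TPM + 1, IMF minus BF, was -1.66 ± 0.20 (SE, limma, adjusted p = 0.00300). That was the lowest of all 430 miRNAs tested in BF-0d vs. IMF-0d on this scale, which understates the fold change of low miRNAs. ssc-miR-138, at 1.25 TPM in BF-0d and 0.305 TPM in IMF-0d (2 to 4 reads a library), is such a low miRNA. The ranks on the other days are on the same scale. On day 2 ssc-miR-378 averaged 861 ± 28.4 TPM in BF and 350 ± 20.4 TPM in IMF, and its log2 fold change of -1.30 ± 0.10 (limma, adjusted p = 0.00147) was the fifth lowest. Day 4 averages were 798 ± 90.4 TPM in BF and 285 ± 59.5 TPM in IMF, and the difference was -1.50 ± 0.23 (limma, adjusted p = 4.90e-04). Day 8 averages were 1215 ± 240 TPM and 371 ± 32.0 TPM, and the difference was -1.69 ± 0.17 (limma, adjusted p = 4.07e-06). On days 4 and 8 ssc-miR-378 ranked 40th and 23rd from the lowest. A DE-miRNA here has an adjusted p (Benjamini-Hochberg FDR over all 430) under 0.05 and a fold change above 1.5. By that rule 29.3% of the tested miRNAs were called in BF-0d vs. IMF-0d, 12.3% in BF-2d vs. IMF-2d, 36.3% in BF-4d vs. IMF-4d and 37.2% in BF-8d vs. IMF-8d. Groups did not overlap for 47.7%, 33.3%, 50.2% and 51.2% of them, so that separation of 3 libraries from 3 was common on any single day.

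**Figure D1:**
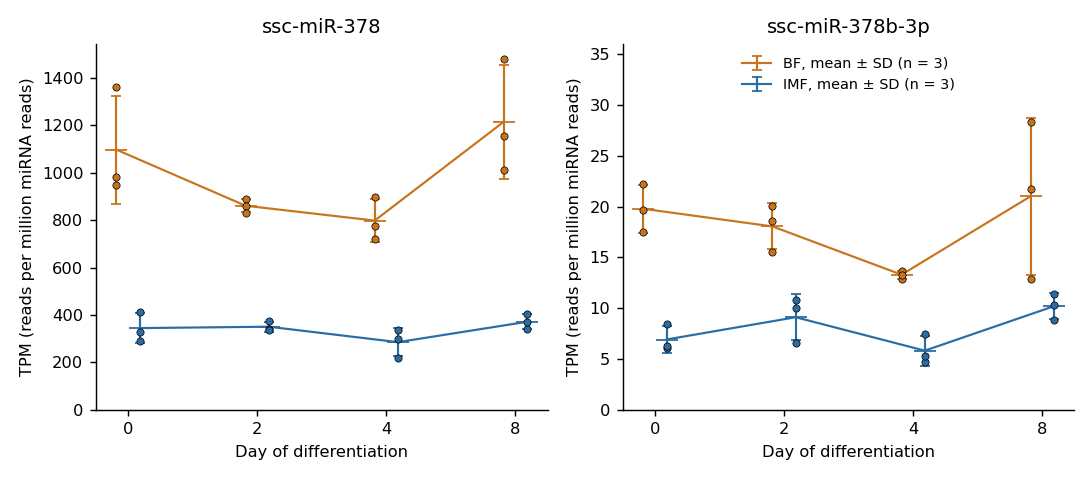
TPM of ssc-miR-378 (left) and ssc-miR-378b-3p (right) in each library against the day of differentiation, subcutaneous (BF) in orange and intramuscular (IMF) in blue. Points are libraries, and bars are the mean ± SD of 3. The lowest BF library stands above the highest IMF library in both panels, by a wide margin for ssc-miR-378 (720 against 414 TPM) and a narrow one for ssc-miR-378b-3p (12.9 against 11.4 TPM).

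The minor member was also lower in IMF. ssc-miR-378b-3p stood at 17.4, 22.2 and 19.7 TPM in the BF-0d libraries and at 6.10, 8.42 and 6.23 TPM in IMF-0d. On day 2 it stood at 18.6, 20.01 and 15.6 TPM in BF and at 9.99, 6.53 and 10.8 TPM in IMF. No IMF library reached a BF library of its day. On day 4 the BF values were 13.7, 12.9 and 13.3 TPM and the IMF values 4.71, 5.28 and 7.48 TPM. On day 8 the BF values were 28.4, 21.8 and 12.9 TPM and the IMF values 8.84, 10.4 and 11.4 TPM. The BF-8d libraries were the most spread of any group, with an SD of 7.75 TPM around a mean of 21.0 TPM. The lowest of them was the shallowest library, where 64 reads gave a 95% Poisson interval of 9.95 to 16.5 TPM.

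The log2 fold changes of ssc-miR-378b-3p, IMF minus BF, were -1.40 ± 0.18 on day 0 (limma, adjusted p = 0.00412) and -0.93 ± 0.21 on day 2 (limma, adjusted p = 0.0400). On days 4 and 8 they were -1.09 ± 0.23 (limma, adjusted p = 0.00278) and -0.92 ± 0.26 (limma, adjusted p = 0.0121). Its group means were 19.8 ± 2.38 TPM in BF-0d against 6.92 ± 1.31 TPM in IMF-0d, and 18.0 ± 2.27 TPM in BF-2d against 9.11 ± 2.27 TPM in IMF-2d (SD, n = 3). They were 13.3 ± 0.399 TPM in BF-4d against 5.82 ± 1.46 TPM in IMF-4d, and 21.0 ± 7.75 TPM in BF-8d against 10.2 ± 1.27 TPM in IMF-8d. The call on day 2 was lost without any one of BF-2d replicate 1 or 2 (0.138 and 0.136) or IMF-2d replicate 1, 2 or 3 (0.106, 0.0944 and 0.0796). The call on day 8 was lost with edgeR on the recovered reads (log2 fold change -0.73, adjusted p = 0.0700) and with median-of-ratios scaling (-0.61, adjusted p = 0.114). It was also lost without BF-8d replicate 2 (limma, adjusted p = 0.0534) or IMF-8d replicate 1 (0.0585).

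Scaling moved the size of these differences. Median-of-ratios scaling of the libraries raised the median log2 fold change of all tested miRNAs between the sources by 0.12, 0.13, 0.34 and 0.25 on days 0, 2, 4 and 8. On that scale the log2 fold change of ssc-miR-378 was -1.50, -1.15, -1.07 and -1.37 and stayed past the threshold each day. That of ssc-miR-378b-3p was -1.25, -0.80, -0.71 and -0.61.

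**Figure D2:**
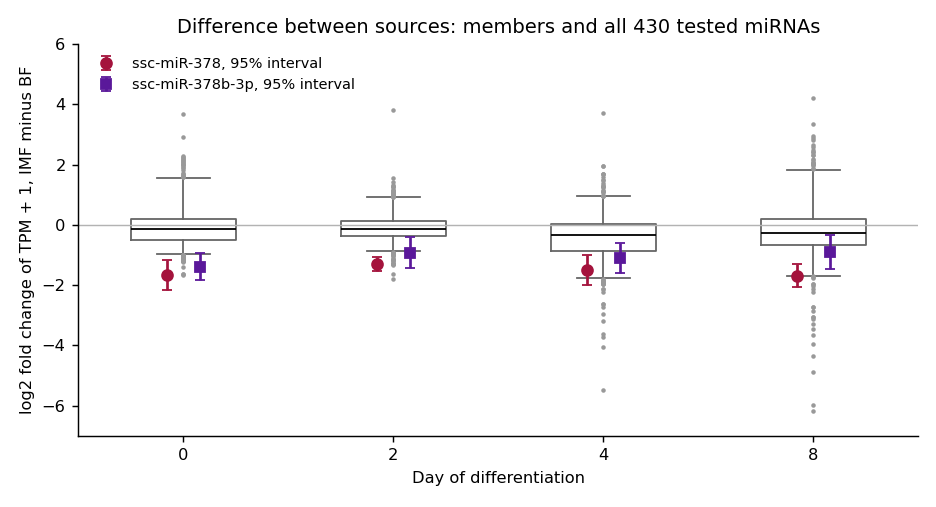
Log2 fold change of TPM + 1, IMF minus BF, on each day for ssc-miR-378 (circles) and ssc-miR-378b-3p (squares) with 95% intervals, over boxes for all 430 tested miRNAs (whiskers at the 5th and 95th percentile, grey points beyond them). ssc-miR-378 lies below the lower whisker on days 0 and 2 (-1.66 and -1.30), inside it on day 4 (-1.50) and at it on day 8 (-1.69), where the boxes and whiskers reach lower.

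Few miRNAs were called in one direction on all 4 days. Of 430 tested, 11 were DE-miRNAs in that direction in each of the 4 comparisons (2.56%), and both family members were among them, while 18 were higher in IMF in each. The place of ssc-miR-378b-3p rests on its calls on days 2 and 8. That of day 2 was lost in 5 of 6 fits with a library left out and with a replicate block (adjusted p = 0.109), and that of day 8 by edgeR and with median-of-ratios scaling. The others were ssc-miR-138, ssc-miR-30b-5p, ssc-miR-10a-5p, ssc-miR-450b-5p, ssc-miR-30d, ssc-miR-424-5p, ssc-miR-450c-5p, ssc-miR-450a and ssc-miR-92a. On the mean of the 4 log2 fold changes, ssc-miR-378 ranked 7th from the lowest (-1.54) and ssc-miR-378b-3p 30th (-1.08) among all tested. The 12 BF libraries all lay above the 12 IMF libraries for both members, which held for 10 of 430 miRNAs (2.33%), and for 17 (3.95%) in the opposite direction. For ssc-miR-378 the lowest BF library was 1.74 times the highest IMF library, and for ssc-miR-378b-3p 1.13 times. With median-of-ratios scaling the factor for ssc-miR-378 was 1.42, whereas the libraries of ssc-miR-378b-3p overlapped, and 6 miRNAs (1.40%) were fully apart in this direction and 24 (5.58%) in the opposite one.

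The order of the 8 groups by mean TPM was the same for both members. From the highest it ran BF-8d, BF-0d, BF-2d, BF-4d, IMF-8d, IMF-2d, IMF-0d and IMF-4d. The places of BF-8d and BF-0d depended on the scaling, since the log2 change from BF-0d to BF-8d was -0.036 for ssc-miR-378 and -0.15 for ssc-miR-378b-3p with median-of-ratios scaling. That of ssc-miR-378 from IMF-0d to IMF-2d was near 0, with 0.031 on that scale, 0.0099 by DESeq2 and -0.046 by edgeR. For ssc-miR-378, neighbours in this order overlapped except BF-0d with BF-2d (16.7% of the tested miRNAs were lower in BF-2d without overlap) and BF-4d with IMF-8d, where the full separation of the sources fixes it. For ssc-miR-378b-3p the neighbours that did not overlap were BF-2d with BF-4d (10.5% of the tested miRNAs were lower in BF-4d without overlap) and BF-4d with IMF-8d, fixed in the same way. The step from the lowest BF to the highest IMF group was 798 to 371 TPM for ssc-miR-378 and 13.3 to 10.2 TPM for its relative.

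Changes between days within a source did not pass the test for either member. None of the 16 tests between days (2 members, 8 comparisons) gave a DE-miRNA by limma, edgeR or DESeq2. By limma 3 of the 16 had an unadjusted p under 0.05, which were the rise of ssc-miR-378 from BF-4d to BF-8d and those of ssc-miR-378b-3p from IMF-4d and IMF-0d to IMF-8d. Such a p was common in these comparisons, with 23.0%, 32.3% and 46.5% of all tested miRNAs. In the others it was held by 24.2%, 27.2% and 51.6% in BF (days 0 to 2, 2 to 4 and 0 to 8) and by 15.8% and 15.1% in IMF (days 0 to 2 and 2 to 4). By limma 4.19% of all tested miRNAs were called in subcutaneous adipocytes from day 0 to 2, 6.05% from day 2 to 4, 3.02% from day 4 to 8 and 42.8% from day 0 to 8. In intramuscular adipocytes the shares were 0.00%, 0.00%, 13.0% and 30.5%. In the same order, edgeR called 13.0%, 3.95%, 3.02% and 43.7% in BF and 1.63%, 0.233%, 15.1% and 34.2% in IMF. DESeq2 called 13.9%, 12.7%, 5.96% and 41.9% in BF and 2.23%, 0.477%, 14.9% and 31.9% in IMF. For the pair of 0.00% shares, limma gave 68 and 65 miRNAs with an unadjusted p under 0.05, edgeR called 7 and 1, and DESeq2 called 9 and 2.

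ssc-miR-378 in BF changed by a log2 fold change of -0.33 from day 0 to 2 (limma, adjusted p = 0.275), with BF-2d libraries all below BF-0d, as for 16.7% of the tested miRNAs. Without BF-0d replicate 2 this was -0.17. It changed by -0.11 from day 2 to 4 (adjusted p = 0.739), which was -0.20 without BF-4d replicate 2, -0.043 without BF-4d replicate 3, -0.23 with median-of-ratios scaling, -0.31 by edgeR and -0.30 by DESeq2. It changed by 0.59 from day 4 to 8 (adjusted p = 0.149). This last step had a 95% interval of 0.11 to 1.07, and all BF-8d libraries lay above all BF-4d libraries, which held for 12.6% of the tested miRNAs. With one limma fit of all 24 libraries its adjusted p was 0.0269. From day 0 to 8 the values came back to 0.15, with an interval of -0.29 to 0.59 whose upper end is at about the 1.5-fold threshold. Its sign was not stable, with -0.036 under median-of-ratios scaling, -0.020 by DESeq2 and -0.0026 without BF-8d replicate 1.

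In IMF none of the changes of ssc-miR-378 between days passed the test either. The log2 fold changes were 0.04 from day 0 to 2 (limma, adjusted p = 0.938, and below 0 without IMF-0d replicate 3, -0.078, or IMF-2d replicate 1, -0.0095), -0.32 from day 2 to 4 (adjusted p = 0.402) and 0.40 from day 4 to 8 (adjusted p = 0.168). Without IMF-4d replicate 1 the last 2 steps were -0.14 and 0.22. Median-of-ratios scaling, edgeR and DESeq2 gave -0.15, -0.14 and -0.16 for the step from day 2 to 4 and 0.21, 0.16 and 0.15 for that from day 4 to 8. From day 0 to 8 the change was 0.12, with an interval of -0.25 to 0.49. It was 0.0036 without IMF-0d replicate 3 and 0.26 without IMF-0d replicate 2, and 0.016 and 0.0037 by edgeR and DESeq2.

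ssc-miR-378b-3p in BF changed by -0.13, -0.41 and 0.56 over the 3 steps and by 0.02 from day 0 to 8, none of which passed the threshold. With one library left out the first step ran from -0.21 (without BF-0d replicate 1) to -0.029 (without BF-2d replicate 3). The second was -0.62 by both edgeR and DESeq2, and the third ran from 0.32 (without BF-8d replicate 1) to 0.86 (without BF-8d replicate 3). The change from day 0 to 8 turned below 0 without BF-0d replicate 1 (-0.059), BF-8d replicate 1 (-0.22) or BF-8d replicate 2 (-0.034). In IMF it changed by 0.34 from day 0 to 2 (limma, adjusted p = 0.549) and by -0.56 from day 2 to 4 (limma, adjusted p = 0.337). The first of these ran from 0.21 (without IMF-2d replicate 3) to 0.54 (without IMF-2d replicate 2). The step from day 4 to 8 had a log2 fold change of 0.73 ± 0.21 (limma, adjusted p = 0.0568), and all IMF-8d libraries lay above all IMF-4d libraries, as for 30.5% of the tested miRNAs. That step had an adjusted p of 0.0233 without IMF-4d replicate 3, 0.0268 in one fit of all 24 libraries, and 0.00276 when the filter on the mean was raised to 10 TPM. From day 0 to 8 in IMF it was 0.51 ± 0.17 (limma, adjusted p = 0.0593), and 0.64 without IMF-0d replicate 2 (adjusted p = 0.0263). Whether the time course differed between sources was tested over all 24 libraries. The adjusted p of the source-by-day interaction (limma F test) was 0.563 for ssc-miR-378 and 0.560 for ssc-miR-378b-3p, while 31.6% of the tested miRNAs passed. The difference in the change from day 0 to 8, IMF minus BF, was -0.03 with a 95% interval of -0.58 to 0.52 for ssc-miR-378 and 0.48 with an interval of -0.18 to 1.15 for ssc-miR-378b-3p.

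**Figure D3:**
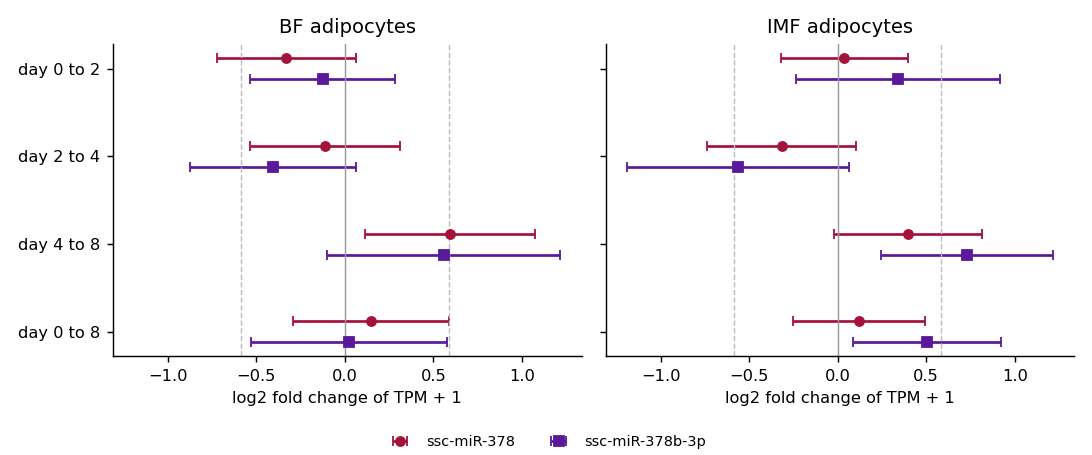
Log2 fold change of TPM + 1 between days in BF (left) and IMF (right) for both members, with 95% intervals. Dashed lines mark a 1.5-fold change up or down. The 3 intervals that leave out 0 are the rise of ssc-miR-378 from BF-4d to BF-8d (0.59) and the rises of ssc-miR-378b-3p from IMF-4d (0.73) and from IMF-0d (0.51) to IMF-8d. None had an adjusted p under 0.05.

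The ratio of the members within a library does not depend on how libraries are scaled. It does depend on how the authors assigned reads that match both members. It also depends on whether any ssc-miR-378 molecules had the 3′ end of ssc-miR-378b-3p, which was not tested. Reads of ssc-miR-378b-3p came to 1.83% ± 0.185 of those of ssc-miR-378 in BF-0d, 2.09% ± 0.226 in BF-2d, 1.68% ± 0.215 in BF-4d and 1.69% ± 0.361 in BF-8d (SD, n = 3). In IMF they came to 2.01% ± 0.151, 2.60% ± 0.644, 2.07% ± 0.478 and 2.74% ± 0.121 on days 0, 2, 4 and 8. The ratio was higher in IMF on 4 of 4 days, so the minor member differed less between the sources than the major one. The mean log2 difference over the 4 days was 0.36 (exact two-sided permutation test with sources exchanged within days, p = 0.00259, against a smallest possible 1.25e-05). Without replicate 3 it was 0.23 (exact permutation test, p = 0.0432). Libraries of one source may share piglets across days, and then this p is too small.

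On single days the log2 difference in ratio, IMF minus BF, was 0.14 on day 0 (exact permutation test, p = 0.2), 0.29 on day 2 (p = 0.3) and 0.28 on day 4 (p = 0.3, both exact). On day 8 it was 0.72 (exact permutation test, p = 0.1), and the groups did not overlap, with 1.28% to 1.92% in BF and 2.60% to 2.82% in IMF. Between 3 and 3 libraries this test cannot go below 0.1. The day 0 difference was 0.053 without replicate 2 and 0.27 as a ratio of TPM + 1, and that of day 2 was 0.040 without replicate 3 and 0.57 without replicate 2. Within IMF the ratio was higher by 0.45 on day 8 than on day 0 (exact permutation test, p = 0.1, no overlap). Within BF the difference was -0.13 (exact permutation test, p = 0.7), and 0.13 without replicate 3.

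**Figure D4:**
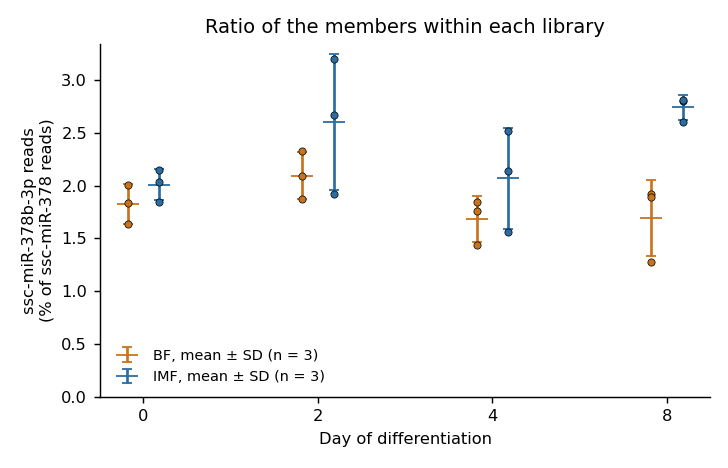
Reads of ssc-miR-378b-3p as a percentage of ssc-miR-378 reads in each library against the day of differentiation, BF in orange and IMF in blue, with the mean ± SD of 3 libraries. The IMF mean is the higher one on each day, and the groups are apart on day 8, where BF averages 1.69% and IMF 2.74%.

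Over the 24 libraries, the 2 members had the most similar profiles to each other (Pearson r = 0.93 of log2(TPM + 1)). Within BF the r was 0.78 and within IMF 0.71, over 12 libraries each, and the deviations from the group means had an r of 0.63. The members share 20 bases, their libraries and the scaling, so these values are descriptions. After ssc-miR-378b-3p, the miRNAs most like ssc-miR-378 among 429 compared were ssc-miR-450a (r = 0.92), ssc-miR-450b-5p (0.90), ssc-miR-450c-5p (0.90) and ssc-miR-10a-5p (0.87). Within one source the likeness was weaker, with 0.58 in BF and 0.63 in IMF for ssc-miR-450a and 0.16 and -0.07 for ssc-miR-10a-5p. For ssc-miR-378b-3p, ssc-miR-450a (0.91), ssc-miR-450c-5p (0.84), ssc-miR-503 (0.83) and ssc-miR-7136-5p (0.82) followed its relative. In the same order these were 0.78, 0.20, 0.15 and 0.35 within BF, and 0.60, 0.48, 0.65 and 0.61 within IMF. Within BF, ssc-miR-450a was thus as close to ssc-miR-378b-3p as ssc-miR-378 was (both 0.78). On the TPM scale the most opposite profiles to ssc-miR-378 were those of 3 predicted miRNAs, novel_miR_1098 (r = -0.95), novel_miR_884 (-0.93) and novel_miR_1047 (-0.93). Within BF and IMF these were -0.60 and -0.39, -0.81 and -0.38, and -0.88 and -0.24. With median-of-ratios scaling they ranked 427th, 426th and 425th of 429, so that 2 others were more opposite. To ssc-miR-378b-3p they were those of novel_miR_884 (-0.84), novel_miR_2 (-0.82) and novel_miR_1098 (-0.82), which ranked 427th, 429th and 421st with that scaling. Within BF and IMF these were -0.51 and -0.36, -0.40 and -0.37, and -0.25 and -0.06.

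Levels of some of these miRNAs are given for BF-0d and IMF-0d only. They were chosen by their profiles over these same libraries, so a difference between the sources follows from the choice. The p-values are therefore descriptions. ssc-miR-450a stood at 210.1 TPM in BF-0d and 100.2 TPM in IMF-0d (log2 fold change -1.08, limma, adjusted p = 0.0104). ssc-miR-10a-5p, which is encoded in a HOX gene cluster, stood at 7130 and 3283 TPM (-1.12, limma, adjusted p = 0.00418). The predicted novel_miR_1098 stood at 5.98 and 18.1 TPM (1.45, limma, adjusted p = 0.00311).

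A short list of other miRNAs known to lie in introns, which is not a full one, was read beside the family. Of 6 listed, ssc-miR-33a, ssc-miR-33b-5p, ssc-miR-103 and ssc-miR-107 have hosts with a role in metabolism, whereas ssc-miR-208b and ssc-miR-499-5p lie in myosin heavy chain genes of muscle and also stand among the skeletal muscle markers. In the table were 4 of them, and 3 were tested, ssc-miR-103, ssc-miR-107 and ssc-miR-499-5p. On days 0, 2, 4 and 8, 2, 0, 1 and 0 of the 3 were lower in IMF and 0 were higher, beside 15.8%, 6.51%, 28.8% and 25.1% lower and 13.5%, 5.81%, 7.44% and 12.1% higher among all tested. The median log2 fold changes of the 3 were -0.59, -0.38, -0.48 and 0.0053, and -0.44, -0.24, -0.066 and 0.31 with median-of-ratios scaling. Over all tested miRNAs the medians were -0.13, -0.14, -0.34 and -0.28, and -0.015, -0.0089, -0.0010 and -0.032 on that scale. ssc-miR-103, hosted in a pantothenate kinase gene of coenzyme A synthesis, stood at 1164 TPM in BF-0d and 736 TPM in IMF-0d (log2 fold change -0.67, limma, adjusted p = 0.00628). ssc-miR-107 stood at 34.5 and 22.8 TPM (-0.59, limma, adjusted p = 0.0611). The other one called on day 0 was ssc-miR-499-5p, at 20.1 and 13.0 TPM (-0.59, limma, adjusted p = 0.0426).

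Of the miRNAs known to promote adipogenesis, 17 of 19 were tested. Between the sources, 6, 4, 9 and 6 were lower in IMF on days 0, 2, 4 and 8, and 2, 0, 0 and 1 were higher, beside 15.8%, 6.51%, 28.8% and 25.1% lower and 13.5%, 5.81%, 7.44% and 12.1% higher among all tested. The median log2 fold change of this list was -0.42, -0.38, -0.74 and -0.40, beside -0.13, -0.14, -0.34 and -0.28 over all tested miRNAs. Median-of-ratios scaling gave list medians of -0.26, -0.24, -0.31 and -0.075, beside -0.015, -0.0089, -0.0010 and -0.032 over all tested. From day 0 to 8, where neither member of the miR-378 family was called, 8 of the 17 rose and 1 fell in BF, and 9 rose and 0 fell in IMF. Among all tested miRNAs, 27.9% rose and 14.9% fell in BF, and 19.8% rose and 10.7% fell in IMF. ssc-miR-210, induced by low oxygen and known in adipogenesis, rose from 17.8 TPM in BF-0d to 498 TPM in BF-8d (log2 fold change 4.71, limma, adjusted p = 3.05e-11).

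Of the miRNAs known to restrain adipogenesis, 12 of 13 were tested. On days 0, 2, 4 and 8, 4, 2, 6 and 5 were lower in IMF and 1, 0, 0 and 1 higher, with median log2 fold changes of -0.43, -0.27, -1.02 and -0.41, or -0.26, -0.13, -0.64 and -0.10 with median-of-ratios scaling. Over all tested miRNAs, 15.8%, 6.51%, 28.8% and 25.1% were lower and 13.5%, 5.81%, 7.44% and 12.1% higher. From day 0 to 8, 6 of the 12 rose and 3 fell in BF (beside 27.9% and 14.9% of all tested), and 2 rose and 1 fell in IMF (beside 19.8% and 10.7%). ssc-miR-138, which restrains adipogenic differentiation, stood at 15.2 ± 2.92 TPM in BF-8d and 0.484 ± 0.158 TPM in IMF-8d (SD, n = 3), the latter from 4 to 8 reads a library. This was a log2 fold change of -3.44 (limma, adjusted p = 7.79e-08). On day 4 its BF libraries spread from 4.45 to 44.6 TPM, and the IMF libraries held 0 to 2 reads.

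Of the miRNAs linked to brown and beige fat, all 14 in the table of 16 listed were tested. On days 0, 2, 4 and 8, 4, 2, 3 and 5 were lower in IMF and 3, 2, 1 and 1 higher, beside the same shares of all tested (15.8%, 6.51%, 28.8% and 25.1% lower, 13.5%, 5.81%, 7.44% and 12.1% higher). The median log2 fold changes were -0.52, -0.26, -0.56 and -0.23, and -0.36, -0.12, -0.13 and 0.086 with median-of-ratios scaling, so that the sign on day 8 depended on the scaling. From day 0 to 8, 5 of the 14 rose in BF (27.9% of all tested) and 6 in IMF (19.8%), and none fell by the limma test (14.9% and 10.7%). ssc-miR-182 was higher in IMF on day 0 (129 against 383 TPM, log2 fold change 1.52, limma, adjusted p = 0.0238) and lower on day 8 (1290 against 372 TPM, -1.75, adjusted p = 1.68e-05). The direction of ssc-miR-378 was the same on each day. Among the 430 tested miRNAs, 11 were called lower and 18 higher in IMF on all 4 days.

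Markers of other cell types were read beside the family. Of 6 skeletal muscle miRNAs, 5 were in the table, and their summed level, nearly all from ssc-miR-1, ran from 818 to 1012 TPM in BF-0d and from 909 to 1738 TPM in IMF-0d. On day 2 it ran from 475 to 544 TPM in BF and from 814 to 1065 TPM in IMF. On day 4 it ran from 1042 to 1526 TPM in BF and from 696 to 985 TPM in IMF, and on day 8 from 1324 to 2361 TPM and from 982 to 1631 TPM. On this scale the sums did not overlap on day 2, when IMF was higher, as for 12.8% of all tested miRNAs. Nor did they on day 4, when IMF was lower, as for 41.2%. Of the 3 tested, limma called 1, 1, 0 and 0 higher in IMF on days 0, 2, 4 and 8 and 1, 0, 0 and 0 lower, beside 13.5%, 5.81%, 7.44% and 12.1% higher and 15.8%, 6.51%, 28.8% and 25.1% lower among all tested. Their median log2 fold change was 0.30 on day 2 and -0.55 on day 4, and 0.43 and -0.12 with median-of-ratios scaling, so that the day 4 value shrank on that scale. ssc-miR-206, which marks myogenic cells, had at most 9 reads in a library.

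The 2 endothelial markers, ssc-miR-126-3p and ssc-miR-126-5p, were also lower in IMF on day 8. Their summed level ran from 38.1 to 71.2 TPM in BF-0d and from 18.2 to 40.4 TPM in IMF-0d, which overlapped. On day 2 it ran from 26.4 to 53.5 TPM in BF and from 24.5 to 27.4 TPM in IMF. It ran from 53.6 to 86.4 TPM in BF-4d and from 18.7 to 30.9 TPM in IMF-4d, and from 51.2 to 90.9 TPM in BF-8d and from 24.6 to 34.8 TPM in IMF-8d. By limma 0, 0, 1 and 2 of the 2 were lower in IMF on days 0, 2, 4 and 8, beside 15.8%, 6.51%, 28.8% and 25.1% of all tested miRNAs. Their part in the difference of the miR-378 family was not tested. The 7 blood and leukocyte miRNAs summed to between 0.662 and 8.08 TPM in any library, and of them 3 or 4 in each group were at or below 3 reads. Only ssc-miR-486, abundant in red blood cells and muscle, was tested. It stood at 1.51 TPM in BF-4d and 0.323 TPM in IMF-4d (log2 fold change -0.94, limma, adjusted p = 0.0188), and at 2.43 TPM in BF-8d and 6.27 TPM in IMF-8d (1.10, limma, adjusted p = 0.00132). On days 0 and 2 it was not called (0.38 and -0.02). It was thus lower in IMF on day 4 and higher on day 8, and its part in the difference of the family was not tested.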

How the data were processed

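The deposited values are RPM, named TPM by the authors, as reads per 1000000 reads counted on miRNAs, in 24 libraries. Per the study's methods, adapter-trimmed reads were mapped to Sscrofa11.1 by Bowtie with perfect matches, known miRNAs were named through miRBase and new ones were predicted with miRDeep2. All 38088 values were within 0.000569 of a whole number of reads (tolerance 0.01), so reads were recovered. No molecular identifiers are named. Libraries of a group all differed by more than counting noise (chi-square per degree of freedom of 38.8 or more). The mRNA libraries were not used here, and 1 hairpin is not reported here.

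Each pair of groups was compared by limma 3.58.1 in R 4.3.3, with a trend in eBayes, on log2(TPM + 1). The 430 miRNAs that averaged 1 TPM or more were tested, and p-values were adjusted over all of them after Benjamini and Hochberg. A fold change on this scale understates that of low miRNAs. Alternatives used median-of-ratios scaling, edgeR 4.0.16 or DESeq2 1.42.0 on recovered reads, both members summed, a replicate block, a single fit of 24 libraries, a filter at 10 TPM or none, 0.1 as pseudocount, and each library left out. Scripts were tested on simulated data. Named were the members, the 5 most and 3 least alike miRNAs by Pearson r, up to 4 of the largest called changes per list, and those standing beside a result. Outside that rule, the 9 other miRNAs lower on all days were chosen after their values were seen. The members and lists were chosen with earlier results of these data known. Sequences, ratios and plots were made in Python 3.11.15 with SciPy 1.17.1, Matplotlib 3.10.9, pandas 2.3.3 and NumPy 2.4.6.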

Additional observations from a re-analysis of the deposited data

How the results depend on the processing

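Over 33 results there were 452 alternative values, of which 421 were rated the same. For fold changes and the ratio over days, that means the same direction and side of the threshold, and for the interaction the same side. For a ratio between single groups it means the same direction and a move below the pooled SD. The fit of both members summed was counted for each member. The 13 that changed sign were of 4 differences within a source that were not called. From BF-0d to BF-8d, ssc-miR-378 turned to -0.036 with median-of-ratios scaling and -0.020 with DESeq2, and was -0.0026 to 0.31 with one library left out. ssc-miR-378b-3p turned to -0.15, -0.014 and -0.061 with median-of-ratios scaling, edgeR and DESeq2, and was -0.22 to 0.32 with one library left out. From IMF-0d to IMF-2d, ssc-miR-378 turned to -0.046 with edgeR and was -0.078 to 0.18 with one library left out. All alternatives kept the 4 differences of ssc-miR-378 between the sources past the threshold, from pseudocount to left-out library. For ssc-miR-378b-3p on day 2 the call was lost with a pseudocount of 0.1 (-1.004, adjusted p = 0.0506), without a filter (-0.93, adjusted p = 0.189) and with a replicate block (-0.93, adjusted p = 0.109), and leaving out one library gave -1.06 to -0.73. On day 8 it was lost without a filter (-0.92, adjusted p = 0.169), with median-of-ratios scaling (-0.61) and with edgeR (-0.73), and leaving out one library gave -1.21 to -0.68. Without a filter more miRNAs enter the adjustment. Rises that passed only under an alternative were those of ssc-miR-378 from BF-4d to BF-8d in one fit of 24 libraries (0.59) and of ssc-miR-378b-3p from IMF-4d to IMF-8d in that fit and with a filter at 10 TPM (0.73) and without IMF-4d replicate 3 (0.90), and from IMF-0d to IMF-8d without IMF-0d replicate 2 (0.64). Leaving out one library gave 0.61 to 0.90 for IMF-4d to IMF-8d and 0.43 to 0.64 for IMF-0d to IMF-8d. The ratio of the members from BF-0d to BF-8d was -0.30 to 0.13 with one replicate left out, 0.13 without replicate 3. Its mean over the days, IMF minus BF, was 0.23 to 0.44 with one replicate left out. Where no cause is named, it was not tested. Whether replicate numbers pair the libraries was not settled. The deviations of same-numbered libraries had a median r of -0.003 over 84 pairs, and 21 were over 0.1. Those of libraries with different numbers had a median of -0.001 over 168 pairs, and 41 were over 0.1. A median over all pairs can miss pairing on single days. Replicates 1 and 3 were the closest in both sources on day 0 (chi-square per degree of freedom of 56.6 and 56.9), and replicates 2 and 3 on day 8 (93.5 and 142). On days 2 and 4 the closest pair differed between the sources. The replicate block ended no other call of the members. Depth limits ssc-miR-378b-3p, with 53 reads in its least read library, more than ssc-miR-378.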
